A study of Drosophila melanogaster with 3 samples.

Results

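The nuclear-encoded genes of oxidative phosphorylation were examined for binding of the zinc finger protein pad. They were taken as the protein-coding genes of the Ensembl annotation, release 115, whose symbols begin with ND-, COX4 to COX8, ATPsyn or UQCR-, together with SdhA, SdhB, SdhC and SdhD. The rule uses gene names and no measured value, and it gave 84 members of the 13945 protein-coding genes on the major chromosomes. Complex I had 40 members, complex II 4, complex III 9, complex IV 16 and complex V, the ATP synthase, 15. A further 9 subunits and electron carriers carry other symbols, such as blw and levy, and are described apart from the members.

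The samples were Drosophila melanogaster, taken as whole adult females of the transgenic strain pad-GFP, in which GFP is stably expressed as a C-terminal fusion to pad. Their age is given as unknown. Sonication gave chromatin with a stated size range of 200 to 800, and anti-GFP antibody was used to precipitate the fusion. All 3 biological replicates form 1 group, with no wild type or mutant group beside it, so each result is a description with its spread over the replicates and no test between conditions. A whole fly mixes many tissues, and a peak does not say in which cells the protein was bound.

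Oxidative phosphorylation takes place in the inner mitochondrial membrane. Complex I (NADH dehydrogenase) and complex II (succinate dehydrogenase, also an enzyme of the citrate cycle) pass electrons through ubiquinone to complex III and then through cytochrome c to complex IV (cytochrome c oxidase), which reduces oxygen, while complexes I, III and IV pump protons that drive the ATP synthase. Most subunits are encoded in the nucleus and a few in mitochondrial DNA, and flight muscle is known for very high levels of all of them. The fly genome also holds duplicates of many of these genes, named with a final L, and many such duplicates are known in Drosophila to be expressed mainly in the testis, a tissue that females lack.

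The sequences under the strongest start-site summit of each complex, and for complex IV under the next after COX7C, are shown because they are the bases at which binding was placed at these genes. Each is 101 bases centred on the summit, read 5′ to 3′ on the strand of the gene from the RefSeq copy of the Release 6 assembly (dm6), and capitals mark a searched word. ND-42 lay at 3R:22027556-22027656 on the plus strand, SdhD at 3R:23760562-23760662 on the minus strand and UQCR-14 at X:16286233-16286333 on the plus strand. COX6B lay at X:19744331-19744431 on the minus strand and ATPsynB at 3L:9729938-9730038 on the plus strand.
ND-42: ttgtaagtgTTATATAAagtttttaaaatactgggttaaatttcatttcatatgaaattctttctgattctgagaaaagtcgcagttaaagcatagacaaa
SdhD: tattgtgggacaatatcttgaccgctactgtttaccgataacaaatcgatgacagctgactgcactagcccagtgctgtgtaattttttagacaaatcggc
UQCR-14: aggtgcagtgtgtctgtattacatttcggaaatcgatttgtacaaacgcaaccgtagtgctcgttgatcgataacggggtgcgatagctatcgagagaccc
COX6B: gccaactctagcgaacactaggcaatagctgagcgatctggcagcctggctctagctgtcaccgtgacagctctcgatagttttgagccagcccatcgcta
ATPsynB: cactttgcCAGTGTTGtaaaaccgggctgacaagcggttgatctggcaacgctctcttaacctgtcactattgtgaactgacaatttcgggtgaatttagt
The capitals in ND-42 are TTATATAA, 1 form of the nuclear respiratory gene element, and those in ATPsynB are CAGTGTTG, the reverse complement of CAACACTG. The words searched and their shares are given with the other sequence results.

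A start-site summit was found at 30 of the 84 members (35.7%) in the IDR list. The list is named for the irreproducible discovery rate (IDR), a measure of how alike peaks rank in replicates. It holds the 6659 peaks of highest signal from the pool of all 3 replicates. A place in it thus rests on pooled signal and does not show that the peak was found in each replicate. A start-site summit is the highest point of a peak within 250 bp of an annotated transcript start, and a gene with one in the IDR list is called bound. Of all coding genes, 24.4% were bound. Complex I had 14 bound members of 40, complex II 2 of 4, complex III 1 of 9, complex IV 5 of 16 and the ATP synthase 8 of 15. Within 1 kb of a start the IDR list had a summit at 37 members (44.0%), against 33.5% of all coding genes. These were 15 members of complex I, 4 of complex II, 2 of complex III, 7 of complex IV and 9 of the ATP synthase.

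The duplicates and the other members parted in every list. None of the 21 duplicates was bound, while 30 of the other 63 members were (47.6%). Duplicates made up 6 members of complex I, 3 of complex III, 8 of complex IV and 4 of the ATP synthase, and none of complex II. Without them the counts of bound members were 14 of 34 in complex I, 2 of 4 in complex II, 1 of 6 in complex III, 5 of 8 in complex IV and 8 of 11 in the ATP synthase. The split by name was made with these results in view, and it received no test.

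The longer lists of 30000 regions, which hold background regions beside peaks, had a summit at the start of most members. The pooled list had one at 58 members (69.0%), against 50.7% of all coding genes, and within 1 kb at 65 members (77.4%), against 64.7%. The list of replicate 1 had one at 50 members (59.5%), against 45.4% of coding genes. Replicate 2 had one at 58 members (69.0%), against 50.5%, and replicate 3 at 56 members (66.7%), against 47.1%. Within 1 kb the counts were 63 members in replicate 1 (75.0%, against 62.8% of coding genes), 66 in replicate 2 (78.6%, against 63.0%) and 65 in replicate 3 (77.4%, against 63.3%). Since so many coding genes have such a summit, a member's presence in a long list says little without its rank.

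Over the 3 replicate lists the share of duplicates with a start-site summit was 11.1% ± 2.75, against 83.1% ± 6.01 of the other members (SD, n = 3). Over all coding genes it was 47.7% ± 2.63 (SD, n = 3), so the duplicates lay below it and the other members above it in each replicate. Duplicates ranged from 9.52% to 14.3%, other members from 76.2% to 87.3% and all coding genes from 45.4% to 50.5%. The 3 ranges did not overlap.

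**Figure D1:**
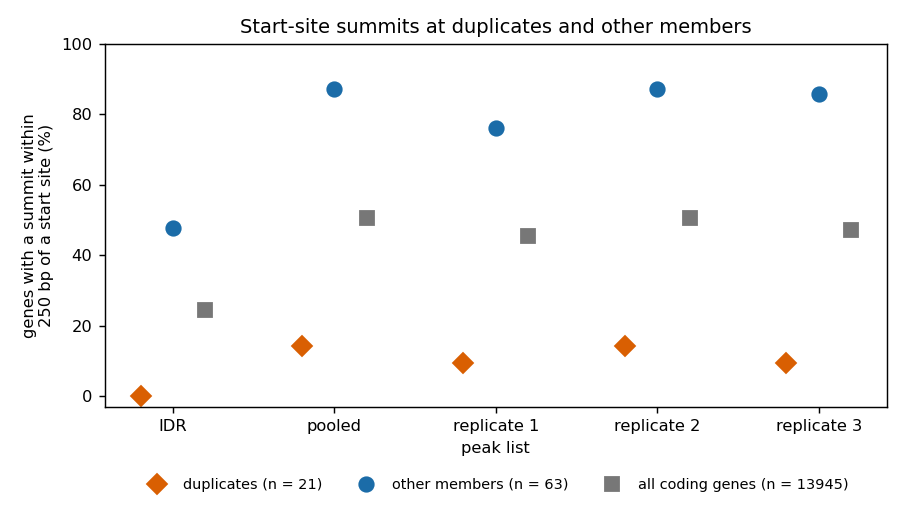
Share of genes with a start-site summit (y axis, percent) in the IDR list, the pooled list and each replicate list (x axis), for 21 duplicates, 63 other members and all 13945 coding genes. The duplicates lie lowest and the other members highest in each of the 5 lists, with 0% against 47.6% in the IDR list.

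Among members that are not duplicates, complex II had the lowest mean share within 250 bp in the replicate lists, and the other complexes overlapped. Within 1 kb this order did not hold. The share with a start-site summit was 81.4% ± 9.45 in complex I, 88.9% ± 9.62 in complex III, 91.7% ± 7.22 in complex IV and 87.9% ± 5.25 in the ATP synthase (SD, n = 3), and these ranges overlapped. Complex II had 58.3% ± 14.4 (SD, n = 3), where 1 gene of its 4 is worth 25.0 percentage points, and its range of 50% to 75% overlapped that of complex I, at 70.6% to 88.2%. It lay below the ranges of complex III, at 83.3% to 100%, complex IV, at 87.5% to 100%, and the ATP synthase, at 81.8% to 90.9%. Within 1 kb complex II and the ATP synthase had 100% in each replicate. Complex I had 92.2% ± 3.40 there, complex III 88.9% ± 9.62 and complex IV 95.8% ± 7.22 (SD, n = 3). Within 250 bp and with the duplicates counted, complex I had 69.2% ± 8.04, complex III 59.3% ± 6.42, complex IV 56.2% ± 6.25 and the ATP synthase 68.9% ± 3.85 (SD, n = 3). The means of complex III and complex IV thus changed their order against complex I with the duplicates, but not every replicate did. Without duplicates complex III lay below complex I in replicate 3, at 83.3% against 85.3%, and above it in replicates 1 and 2. Complex IV lay below complex I in replicate 2, at 87.5% against 88.2%, and above it in replicates 1 and 3. In the IDR list the spread between complexes was wider, from 16.7% in complex III to 72.7% in the ATP synthase without duplicates, and the small numbers of genes limit its precision.

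**Figure D2:**
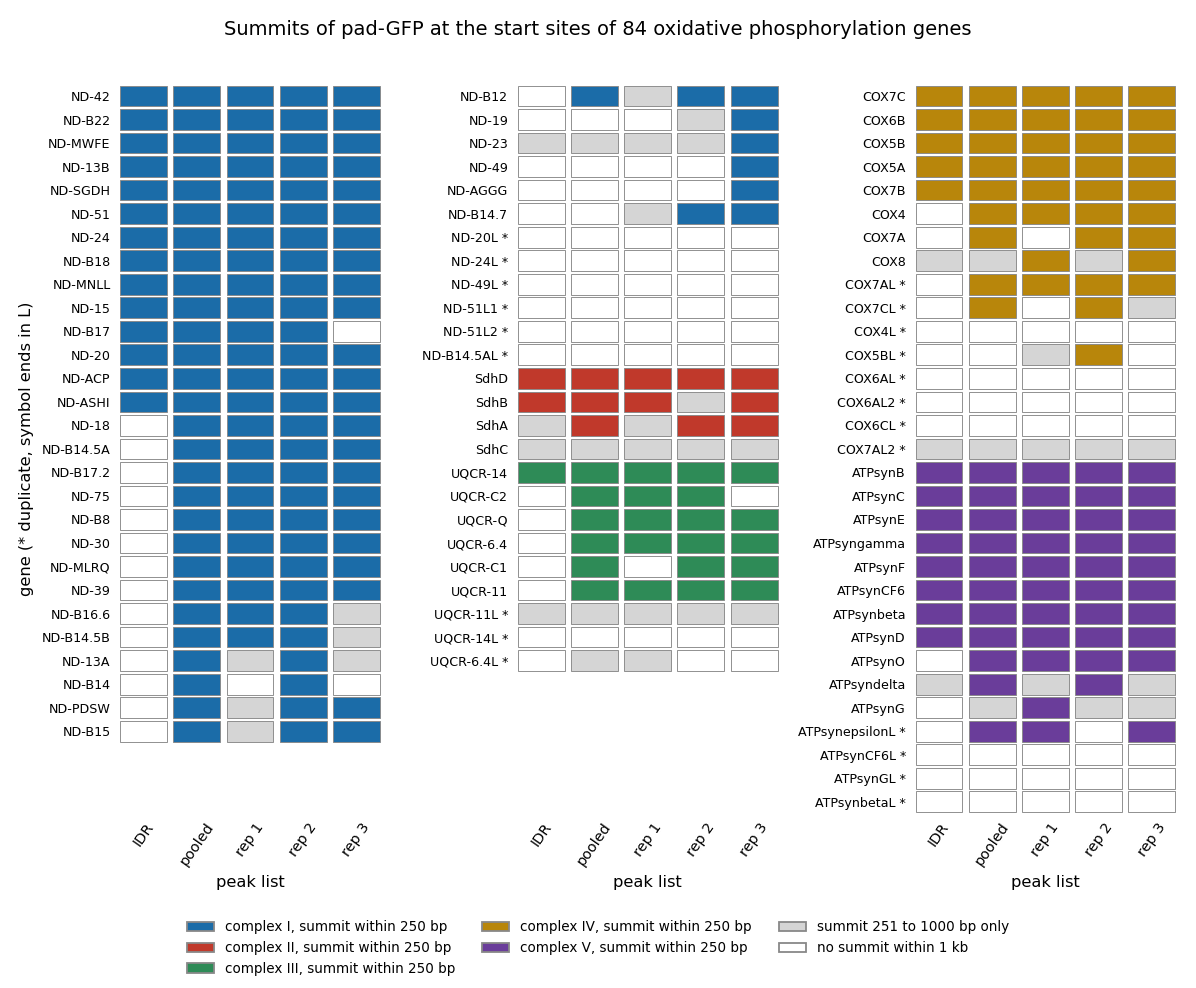
Each row is a member and each column a peak list, from the IDR list to replicate 3. A filled square marks a summit within 250 bp of a start, coloured by complex, a grey square a summit at 251 to 1000 bp only, and an asterisk a duplicate. The IDR column is filled for 30 of 84 members and for none of the 21 duplicates.

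Complex I carried the largest number of bound members, and the 14 spanned both its catalytic core and its accessory subunits. Of the 7 nuclear core subunits, 3 were bound, namely ND-51 and ND-24, which belong to the NADH-oxidising module, and ND-20, which carries an iron-sulfur cluster. Of the 27 accessory subunits that are not duplicates, 11 were bound. The median rank of the 14 was 2628 of 6659 in the IDR list, where rank 1 has the highest signal, the authors' measure of peak strength on a scale that is not stated.

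ND-42, an accessory subunit, had the strongest start-site summit of complex I. It ranked 726 in replicate 1, 1442 in replicate 2 and 1002 in replicate 3, a mean of 1057 ± 361 (SD, n = 3), with a signal of 1271 in the IDR list. Its summit lay 103 bp upstream of the start, and no other ND- gene ranked above it in any replicate list. ND-B22, an accessory subunit, ranked 1019, 2097 and 1848 in replicates 1, 2 and 3. ND-MWFE, a small membrane subunit needed for assembly in mammals, ranked 851, 2706 and 1968 by its strongest summit. In the IDR list that summit lay 42 bp from the start of TppII. The summit nearest to the ND-MWFE start had IDR rank 5768. In both ND-B22 and ND-MWFE, replicate 1 placed the strongest summit highest.

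The next strongest were also found in all 3 replicates. ND-13B ranked 1491, 2276 and 2569 in replicates 1, 2 and 3. ND-SGDH ranked 1365, 2669 and 2199. ND-51, which binds NADH and flavin, ranked 1598, 2494 and 3057. The duplicates of ND-51, ND-51L1 and ND-51L2, had no summit within 1 kb in any list, and their nearest IDR summits lay 2715 and 6548 bp away. ND-24, an iron-sulfur subunit next to ND-51 in the complex, ranked 1737, 2798 and 3573. ND-B18 ranked 2359, 2412 and 4687. ND-MNLL, whose final letters name the protein and not a duplicate, ranked 2608, 3927 and 7027. Of these 6, ND-SGDH alone did not have its largest rank number in replicate 3.

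The remaining bound members of complex I lay in the lower part of the IDR list, from rank 4838 to rank 5937. ND-15 ranked 5174, 5066 and 5053 in replicates 1, 2 and 3, an SD of 66.4. Its largest rank number was 1.02 times its smallest, the lowest such ratio among bound members. ND-20 ranked 4831, 5973 and 5603. ND-ACP, the mitochondrial acyl carrier protein, ranked 6448, 5664 and 5333. ND-ASHI ranked 7062, 5460 and 6557, and a stronger peak of IDR rank 710 within 1 kb of it lay at Fum1, which encodes fumarase. ND-B17 ranked 2257 in replicate 1 and 6608 in replicate 2 and had no start-site summit in replicate 3. Its pooled peak had rank 5139, which set its place in the IDR list, and the part of each replicate in the pooled signal was not tested.

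The core subunits that were not bound had a start-site summit in at least 1 replicate list. ND-75, the largest subunit of complex I, ranked 17027, 7690 and 11570 in replicates 1, 2 and 3. ND-30 ranked 8374, 15146 and 18806. ND-49 and ND-23 had a start-site summit in replicate 3 alone, at rank 10259 for ND-49 and 3426 for ND-23. The ND-23 summit had an offset of -172 bp in that list. In the IDR list the summit near ND-23 had an offset of -264 bp and lay 38 bp from the start of spn-E. In replicates 1 and 2 the summit near ND-23 lay beyond 250 bp.

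In complex II, SdhD, a membrane anchor subunit, and SdhB, the iron-sulfur subunit, were bound. SdhD ranked 3733, 3354 and 4584 in replicates 1, 2 and 3, a mean of 3890 ± 630 (SD, n = 3), with the summit 12 bp upstream of the start. SdhB ranked 3351 in replicate 1 and 7662 in replicate 3 and had no start-site summit in replicate 2. Its summit in replicate 2 lay just beyond the limit, at 255 bp, with rank 7120. SdhA, the flavoprotein that oxidises succinate, ranked 10299 in replicate 2 and 16119 in replicate 3 only. SdhC, the other anchor, was the only member outside the duplicates with no start-site summit in any replicate list.

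UQCR-14, the 1 bound member of complex III, ranked 3537, 3636 and 4672 in replicates 1, 2 and 3, a mean of 3948 ± 629 (SD, n = 3), with the summit 5 bp upstream of the start. Its duplicate UQCR-14L had no summit within 1 kb in any list. The other 5 members of complex III that are not duplicates each had a start-site summit in the pooled list, all past rank 6659, where the IDR list ends. UQCR-C2, a core protein of the complex, ranked 23992 in replicate 1 and 4856 in replicate 2 and had none in replicate 3. UQCR-Q ranked 9237, 7458 and 9874, and UQCR-6.4 ranked 6548, 10332 and 13124. The replicates thus placed UQCR-Q within a narrow band and UQCR-C2 far apart.

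COX7C of complex IV, a small membrane subunit of cytochrome c oxidase, had the strongest start-site summit of all members. It ranked 130, 49 and 84 in replicates 1, 2 and 3, a mean of 87.7 ± 40.6 (SD, n = 3), and its IDR signal was 9858, against 1271 for the next member, ND-42. The peak spanned 2R:10047535-10048841, and its summit stood 154 bp upstream of the COX7C start and inside the annotated gene oys. It was the only bound member among the first 1000 peaks of the IDR list, which is 3.33% of bound members, against 14.8% of bound coding genes. COX7CL, its duplicate, had a start-site summit at rank 16893 in replicate 2 alone.

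The other bound members of complex IV were COX6B, COX5B, COX5A and COX7B. COX6B, a subunit on the side of the complex that faces cytochrome c, ranked 882, 1377 and 838 in replicates 1, 2 and 3. COX5B, which binds zinc, ranked 952, 2484 and 2327 by its strongest summit, which in the IDR list lay nearer to the start of IFT52. COX5A ranked 2266, 2975 and 3099, and COX7B ranked 2821, 3214 and 5872. All 4 were found in each replicate. COX4, the largest nuclear subunit in mammals, was not bound and ranked 12790, 6598 and 7478.

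In the ATP synthase, bound genes were found in each part of the enzyme. In the catalytic head and central stalk 2 of 3 members were bound, in the peripheral stalk 3 of 4 and in the membrane part 3 of 4. ATPsynB of the peripheral stalk ranked highest in the IDR list, at 2858, and 2117, 3814 and 2734 in replicates 1, 2 and 3. ATPsynC, the ring subunit that turns as protons pass, ranked 4410, 3437 and 2427. ATPsynE and ATPsynF, membrane subunits at which the dimers of the enzyme are held, ranked 2784, 3971 and 2700 for ATPsynE and 3705, 6317 and 5614 for ATPsynF. ATPsynbeta, the catalytic subunit, ranked 6049, 5692 and 8695, near the end of the IDR list. ATPsyngamma, the rotor shaft, ranked 3645, 4256 and 6027.

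ATPsynCF6 and ATPsynD of the peripheral stalk were weaker, at 4851, 8150 and 4565 for ATPsynCF6 and 5127, 7555 and 6385 for ATPsynD. ATPsynO, the stalk subunit that caps the head, was not bound and ranked 10823, 5948 and 8496. Bound members of the ATP synthase had a median IDR rank of 4589, against 1797 in complex IV and 2628 in complex I. The complex IV median is the rank of the strongest summit at COX5B, which lay nearer to the start of IFT52. The complexes' ranges overlapped, from 2858 to 6047 in the ATP synthase, 69 to 3265 in complex IV and 1077 to 5937 in complex I.

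**Figure D3:**
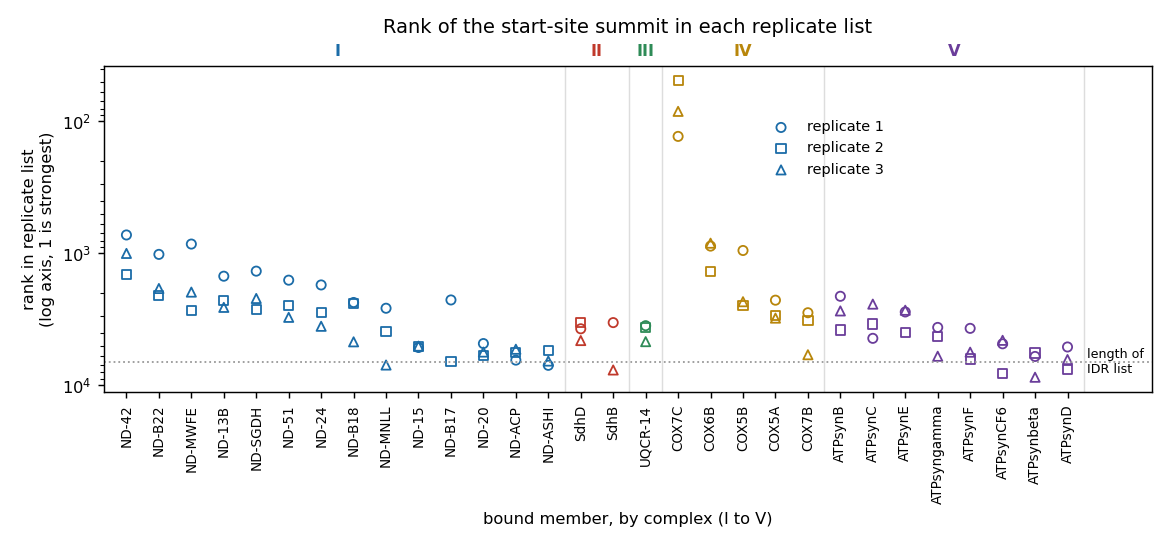
Rank of the start-site summit (y axis, logarithmic, rank 1 at the top) of the 30 bound members (x axis, by complex) in each replicate list. The dotted line marks the length of the IDR list, 6659 peaks. COX7C stands above all other members in each replicate, and ND-B17 and SdhB lack 1 replicate each.

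Of the 30 bound members, 28 had a start-site summit in all 3 replicate lists. Across these 28 the largest rank number was 1.02 to 3.18 times the smallest, with a median of 1.75. The smallest rank number came from replicate 1 in 18 of 28 members (64.3%), against 54.2% of the 3252 coding genes that were bound and found in all 3 lists. Their median ranks were 2696, 3396 and 4069 in replicates 1, 2 and 3, against 2670, 3304 and 3259 for those coding genes. Replicate 3 thus placed the members lower in its list than it placed bound coding genes in general. Read depth is unknown for each replicate, and its part in this was not tested.

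Apart from COX7C, bound members were spread over the IDR list from rank 1077 to rank 6047. Their median rank was 3442, against 3052 for all bound coding genes, and their median signal was 482, against 543. Ranks 1001 to 2000, 2001 to 3000 and 3001 to 4000 held 6 members each, or 20%, against 16.7%, 17.6% and 14.9% of bound coding genes. Ranks 4001 to 5000 held 3 members, or 10%, against 14.2%, and ranks 5001 to 6659 held 8, or 26.7%, against 21.8%. Members were thus fewer than bound coding genes among the first 1000 peaks, and elsewhere the bands differed in both directions.

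The summits of bound members lay close to the start site. The nearest IDR summit had a median offset of -44.5 bp, where negative values are upstream, in a range of -195 to 42 bp, against a median of -75 bp for 3407 bound coding genes. It lay within 50 bp of the start in 18 of 30 bound members (60%), against 30.3% of bound coding genes, and upstream of the start in 26 of 30 (86.7%), against 81.4%. None lay 201 to 250 bp away, against 8.31% of bound coding genes. The complexes' medians were -60 bp in complex I, -15.5 bp in complex II, -48 bp in complex IV and -43 bp in the ATP synthase. In the full replicate lists the members' median offsets were -29.5, -12.5 and -35.5 bp in replicates 1, 2 and 3, against -53, -38 and -42 bp for all coding genes with a start-site summit. The members' median was the nearer to the start in each replicate.

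**Figure D4:**
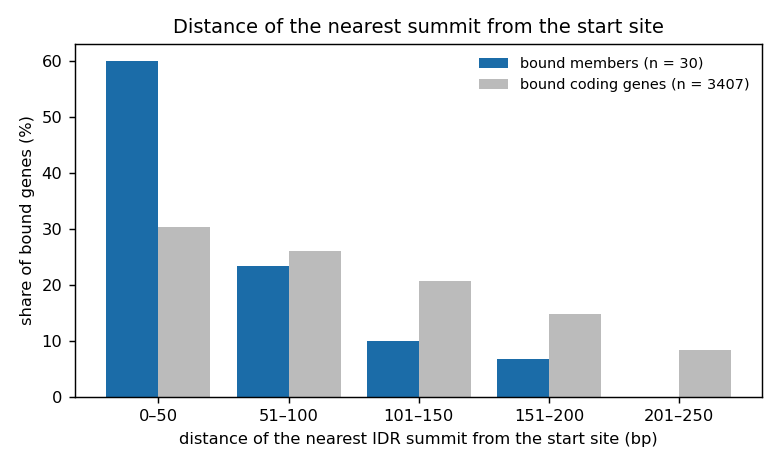
Distance of the nearest IDR summit from the start site (x axis, bands in bp) as a share of bound genes (y axis, percent), for 30 bound members and 3407 bound coding genes. The band of 0 to 50 bp holds 60% of bound members and 30.3% of bound coding genes.

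Many of these summits cannot be assigned to the member alone. In 18 of 30 bound members (60%) another coding gene also had a start within 250 bp of the strongest summit, against 42.3% of bound coding genes. In 6 of them the other start lay nearer to the summit, namely Pus10 beside ND-15, CG13994 beside ND-51, TppII beside ND-MWFE, IFT52 beside COX5B, Sec13 beside ATPsynCF6 and Afti beside ATPsynE. At ND-MWFE, COX5B and ATPsynE a weaker summit lay nearer to the member's own start, at IDR ranks 5768, 4401 and 4055. The ranks given above for these genes are those of the strongest summit. The summit of ND-42 was shared with Cchl, which encodes cytochrome c heme lyase, that of ND-ASHI with Fum1, and that of ATPsynD with the mitochondrial ribosomal protein gene mRpL55. The other 12 bound members, COX7C, ND-B22 and SdhD among them, had their summit to themselves. The 30 bound members had 30 different summits.

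A start on the opposite strand that pointed away within 500 bp was present at 19 of 30 bound members (63.3%), at 17 of 33 unbound members that are not duplicates (51.5%) and at 3 of 21 duplicates (14.3%). Of bound coding genes 52.9% had such a divergent neighbour, and of all coding genes 27.4%. Divergent starts were thus more frequent among bound coding genes in general, and their part in the difference between duplicates and other members was not tested.

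At the 7 members with an IDR summit only at 251 to 1000 bp, the summit nearest to the member lay nearer still to another gene's start. At SdhC it lay 350 bp upstream and 48 bp from the start of Tctp, at rank 3866. At SdhA it lay 872 bp upstream and 71 bp from cer, at rank 5105. At ND-23 it lay 264 bp upstream and 38 bp from spn-E, at rank 3394. These 3 are thus summits of neighbouring starts by distance.

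COX8 and ATPsyndelta had the same layout in the IDR list. The IDR summit at COX8 lay 378 bp upstream and 37 bp from VhaM9.7-b, which encodes a subunit of the vacuolar proton pump, at rank 3736. In the replicate lists COX8 also had start-site summits of its own, at rank 2855 and an offset of -109 bp in replicate 1 and at rank 4153 and an offset of -64 bp in replicate 3. The IDR summit at ATPsyndelta lay 865 bp upstream and 269 bp from Ypel, at rank 4202. The other two were duplicates. UQCR-11L had its summit 996 bp upstream, at rank 4181 and 70 bp from Acsl, and COX7AL2 had one 563 bp downstream, at rank 5976 and 14 bp from CG10874. COX7AL2 also had 2 stronger IDR summits inside the gene, for which its own start was the nearest. The strongest, at rank 199 with a signal of 4619, lay 768 bp downstream of a start and ranked 186, 196 and 205 in replicates 1, 2 and 3, and the other, at rank 944, had an offset of -606 bp from its nearest start. COX7AL2 was thus a duplicate with strong peaks near its starts and none within 250 bp of them.

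None of the duplicates was bound, while some of the genes they are named after were. The rule found 17 duplicates named after a member, and these pointed to 15 members, of which 8 were bound and 13 had a start-site summit in the pooled list. Of all coding genes, 24.4% were bound and 50.7% had a start-site summit in the pooled list. The 8 bound ones were ND-20, ND-24, ND-51, UQCR-14, COX5B, COX7C, ATPsynCF6 and ATPsynbeta. The others, ND-49, ND-B14.5A, UQCR-11, UQCR-6.4, COX4, COX7A and ATPsynG, were unbound like their duplicates. Of all 21 duplicates, 3 had a start-site summit in the pooled list, COX7AL at rank 12658, ATPsynepsilonL at 23949 and COX7CL at 29551. COX7AL was the only duplicate with a start-site summit in each replicate, at ranks 29434, 11995 and 10205 in replicates 1, 2 and 3. Its parent by name, COX7A, ranked 7858 in replicate 2 and 12912 in replicate 3 and had none in replicate 1.

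No summit lay within 1 kb of the start in any of the 5 lists at 14 members, and all 14 were duplicates. They were ND-20L, ND-24L, ND-49L, ND-51L1, ND-51L2 and ND-B14.5AL in complex I, UQCR-14L in complex III, COX4L, COX6AL, COX6AL2 and COX6CL in complex IV, and ATPsynbetaL, ATPsynCF6L and ATPsynGL in the ATP synthase. The nearest IDR summit lay a median of 12538 bp from a duplicate's start, in a range of 563 to 141891 bp. For the other members the median was 350 bp, in a range of 1 to 253814 bp, so the ranges overlapped. Whether a duplicate was expressed in these females was not measured.

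COX5B and COX5BL give the closest comparison, since they stand in tandem on the plus strand of 2L, COX5B at 2L:6557800-6559308 and COX5BL at 2L:6559431-6560133, with 123 bp between them. COX5BL had a start-site summit only in replicate 2, at rank 24383, and its nearest IDR summit lay 1672 bp away. COX5B, as given above, was within rank 2484 in every replicate by its strongest summit. In the IDR list this summit had rank 1797 and an offset of -240 bp from the COX5B start. It lay 58 bp from the start of IFT52. The summit nearest to the COX5B start had an offset of -41 bp and IDR rank 4401.

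Of the 63 members that are not duplicates, 55 had a start-site summit in the pooled list, the 30 bound ones included. Over all 54 unbound members, duplicates among them, this list had 28 such summits (51.9%, against 34.8% of unbound coding genes), 9 at ranks 6660 to 10000, 11 at 10001 to 20000 and 8 at 20001 to 30000. A start-site summit in all 3 replicate lists was seen at 14 of the 54 (25.9%), against 16.4% of 10538 unbound coding genes. They included ND-18 at ranks 10321, 9144 and 9501 in replicates 1, 2 and 3, and ND-39 at 22189, 14370 and 16643. Since the long lists hold background regions, the deeper of these ranks may not mark binding.

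The X chromosome held 12 members, all of them outside the duplicates, and 7 were bound (58.3%), against 26.7% of coding genes on X. On 3R 8 of 18 members were bound, against 25.3% of its coding genes. The counts were 5 of 16 on 2L (23.3%), 4 of 17 on 2R (23.6%), 5 of 19 on 3L (23.8%) and 1 of 2 on chromosome 4 (15%), with the share of the arm's coding genes in parentheses. Among members that are not duplicates, 8 of 13 on 3R and 5 of 12 on 2L were bound, and the duplicates lay on 2L, 2R, 3L and 3R.

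In the 101 bp around each member's strongest summit, 10 motifs spelled as 13 words were searched on both strands, beside 3102 promoter summits of the IDR list. The nuclear respiratory gene element, in the forms TTACATAA, TTACGTAA, TTATATAA and TTATGTAA, was found at 3 of 30 member summits (10%), at ND-42, ND-MNLL and ND-SGDH, against 1.71% of promoter summits. In promoters, taken as 250 bases before to 50 after the start, it was found at 5 of 84 members (5.95%), against 5.18% of all coding genes. The word AGTGTTGG was found at COX5B, ND-15 and SdhB (10% against 3.45%) and CAACACTG at ATPsynB and COX5A (6.67% against 5.25%). These 2 words overlap on opposite strands and were known from earlier results on these peaks.

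GGTCACAC, the core of Motif 1 of housekeeping promoters, was found at the summits of ND-ACP and SdhB (6.67% against 3.06% of promoter summits). It was found in the promoters of 9 of 30 bound members (30.0%), 6 of 33 unbound members that are not duplicates (18.2%) and 1 of 21 duplicates (4.76%), against 7.70% of all promoters. TATCGATA, the DNA replication-related element (DRE), was found at 0 of 30 member summits, against 4.42% of promoter summits, and in 9 of 84 member promoters (10.7%), against 9.36% of all promoters. CACGTG, the site of Myc, was found at COX7C alone (3.33% against 1.23%). AGGGGAAA, the NRF-1 core GCGCATGC, the Ets word CCGGAAGT and GAGAGAG were found at 0 member summits, against 1.35%, 0.580%, 0.193% and 4.03% of promoter summits.

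Base composition of the promoters was similar in duplicates and other members. Median GC was 34.0% in promoters of duplicates and 34.3% in those of other members, against 38.0% in all promoters. It was 40.6% in the windows at bound member summits, against 41.6% in all promoter summit windows.

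Genes that act with the 5 complexes were counted from short lists picked by hand with earlier results of these data known, beside the 24.4% of coding genes that were bound. Of 9 subunits and electron carriers with other symbols, 4 were bound. These were blw, the catalytic head's alpha subunit of the ATP synthase, at rank 1245, levy of complex IV at 2122, ox of complex III at 2879 and Cyt-c-p, the cytochrome c of most tissues, at 910. Cyt-c-d, the cytochrome c known from the male germline, was not bound and had a start-site summit only in replicate 3, at rank 20996. With 2 bound of the 5 assembly factors that matched a symbol, CIA30 of complex I ranked 494 and Cox17, which delivers copper to complex IV, 1314.

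Of 11 citrate cycle genes, 8 were bound (72.7%). They were Fum1 at rank 710, mAcon1 (aconitase) at 819, the 3 isocitrate dehydrogenase genes Idh3g at 889, Idh3b at 2035 and Idh3a at 5101, Ogdh at 4112, ScsbetaA at 5373 and Mdh2 (malate dehydrogenase) at 6396. Of 5 carriers, sesB and Ant2, adjacent genes of the adenine nucleotide translocase that shared 1 summit at rank 5632, and the phosphate carrier Mpcp2 at 3607 were bound. Of 8 regulators of mitochondrial gene expression, ewg, the fly counterpart of NRF-1, at 5944 and mtTFB2, a mitochondrial transcription factor, at 5276 were bound, a share of 25.0%. The regulators' share was near that of all coding genes.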

How the data were processed

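Peaks of pad-GFP in 3 biological replicates of whole adult females were read from the deposited dm6 lists. Per the deposited lists of derived files, the authors called 30000 peaks and background regions per replicate, and as many for the pool of all 3, against a control alignment, and derived the IDR list of 6659 peaks, which holds the strongest pooled peaks. The aligner and the peak caller were not given in the sources used here. The signal of each peak is the authors' deposited value on an unstated scale and was used to rank peaks within a list. Summit positions are those in the deposited files. The lists hold no read counts, so depth is unknown and no interval was computed. The dm3 lists were not used.

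Start sites of all transcripts came from Ensembl release 115 on Release 6, the assembly of the dm6 lists by its arm lengths. A gene took the strongest summit within 250 bp for ranks and the nearest for offsets. No test was run, since there is 1 group. The replicates are called biological and nothing more is said of the flies in each, so spreads may be technical. The members, gene lists, words and the split into duplicates were chosen with earlier results of these data known, and the subunit roles after the values were seen. Named were all bound members, those with an IDR summit only at 251 to 1000 bp, those without any summit within 1 kb, bound genes of the other lists, and examples among the remaining members chosen after their values were seen. Of 10 listed assembly factors 5 matched a symbol. Alternatives covered distance, number of peaks, assignment, start choice and overlap of the IDR peaks with the replicate lists. The assignment of summits was tested on simulated data. Python 3.11.15, numpy 2.4.6, pandas 2.3.3 and matplotlib 3.10.9 were used.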

Additional observations from a re-analysis of the deposited data

How the results depend on the processing

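Of 76 alternatives, 60 left the result within 1.5 times its main count or 1 SD of its main value, and 16 moved it beyond. Counts and not shares were compared, and some could not change. Without the duplicates the count stayed at 30, since none was bound, while the share rose from 35.7% to 47.6%. The count of 0 bound duplicates was fixed under settings that only removed summits. With the 3000 strongest IDR peaks 13 members were bound (15.5%), against 12.0% of coding genes. Of these, 8 were in complex I, 0 in complex II, 0 in complex III and 1 in the ATP synthase. With the 1000 strongest 1 member was bound, or 1.19% against 3.61% of coding genes, so that the members' share lay below that of coding genes there and above it with all IDR peaks. Within 1 kb, where 33.5% of coding genes had a summit, the counts moved to 4 in complex II, 2 in complex III and 2 among the duplicates. Within 100 bp, where 13.7% of coding genes had one, the count moved to 3 in complex IV. To leave out a replicate, only IDR peaks overlapped by the top 10000 peaks of both other replicate lists were kept. The IDR list itself still came from all 3 replicates, so the count could only fall. This gave 28 to 29 bound members (33.3% to 34.5%), against 22.9% to 23.2% of coding genes, and 1 to 2 in complex II. ND-B17 and SdhB were those lost. The top 5000 peaks of a replicate list had a start-site summit at 26, 21 and 20 members in replicates 1, 2 and 3, and the top 10000 of replicate 3 at 36. Giving each summit to the nearest gene left 27 bound members (32.1%), against 20.1% of coding genes, without ATPsynCF6, ND-15 and ND-51. The alternatives for duplicates and other members were chosen after seeing the data. Unknown depth limits what an absent summit shows, and in complexes of few genes 1 gene moves a share widely.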
